A study of Mus with 4 samples.

Results

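The variable (V), joining (J) and constant (C) segments of the T cell receptor beta, gamma and delta loci were followed in DX5-negative natural killer (NK) cells of mouse liver. Members were all genes whose symbol on the array starts with Trbv, Trbj, Trbc, Trgv, Trgj, Trgc, Trdv, Trdj, Trdc, Tcrg- or Tcrb- and that have a row naming no other gene. There were 33 of them among 30063 genes: 21 in the beta, 7 in the gamma and 5 in the delta locus. All 33 were kept whatever their level. The beta members are all V segments, the delta members are all V segments, and the gamma members are 5 V segments, Trgj3 and Trgc3. Of the reference gene table's 2 beta C and 14 beta J segments, 0 have a row of their own here, so the constant part of the beta chain was not analysed here. A further 6 rows name several genes of these loci together, among them the rows that read Trgc1, Trgc2, Trgc4 and Trdc, and they are described apart.

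The study holds 4 Affymetrix arrays of total RNA, 2 from wild-type (WT) and 2 from dnTGFbRII mice, all female, C57BL/6 and 6 to 8 weeks old. The dnTGFbRII animals carry a dominant-negative TGF-beta receptor II transgene and develop liver inflammation. In the line generally known by this name the transgene is driven by a Cd4 promoter, which acts in T cells; the labels do not give the promoter. All samples are labelled as sorted liver DX5-negative NK cells, and the labels do not say by which other markers, CD3 included, the cells were gated. Whether separate animals stand behind the arrays of a genotype is also not said, so every p-value here reflects the spread among these 4 samples only, and that spread may be technical.

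A T cell joins V, D and J segments (beta, delta) or V and J segments (alpha, gamma) by Rag recombination and splices the result to a C segment. The finished chains pair as alpha with beta or gamma with delta and reach the surface only with the CD3 chains. NK cells do not need this step, although C segments and nearby unrearranged segments can be transcribed in lymphocytes that carry no T cell receptor. A V segment row mostly reads chains that use that segment, while a C segment row reads rearranged and unrearranged transcripts alike. Invariant natural killer T cells, which carry NK receptors and are frequent in mouse liver, use mainly beta chains built with Trbv13 segments, Trbv29 or Trbv1. Among gamma segments, Trgv5 is typical of gamma delta T cells of the epidermis, Trgv7 of the intestinal epithelium, Trgv6 of interleukin-17-producing cells of several tissues, and Trgv1 and Trgv4 of circulating and lymphoid cells.

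The log2 medians of the arrays ran from 4.199 to 4.256, and with 4 arrays the precision is limited throughout. All 15 NK cell genes of the list compiled for the labelled cell type lay above the median row mean of 4.22. Among them was Ncr1, the receptor NKp46, at 16.87 to 17.19 over the arrays. Of all 30063 genes 16225 passed that level, as did 7 of 8 dendritic and 8 of 10 alpha beta T cell markers, so it does not separate cell types. The median mean level was 14.4 over the NK list, 5.86 over the dendritic list, 5.45 over the alpha beta list and 11.4 over the CD3 chains. Itga2, the gene of the DX5 antigen, is in the NK list too, so its RNA was measured at 8.32 to 9.06 in cells labelled DX5-negative. The series has no DX5-positive sample, so this RNA level does not test the sort. Dendritic cell markers stood apart on WT replicate 1, where 7 of 8 had their highest value. No member passed an adjusted p of 0.05 in limma, the linear model used here, and neither did any other gene (background 0%), while 789 genes higher and 466 lower in dnTGFbRII cells had an unadjusted p under 0.05. That split depends on scaling: it was 626 and 634 with each array centred on its median, and 688 and 548 after repeated quantile normalization. The lowest adjusted p of all 30063 genes was 0.618. With 2 arrays a side, the smallest p that an exact 2-sided permutation test allows is 0.333.

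Beta V segments were mostly higher in dnTGFbRII cells. Both dnTGFbRII arrays lay above both WT arrays for 13 of 21 (61.9%), against 18.6% of all genes, and below them for 1 (4.76%), against 12.6%. The median difference, dnTGFbRII minus WT, was 0.44 on the log2 scale over the 21 segments and 0.014 over all genes. A difference of at least 2-fold was reached by 6 segments (Trbv12-2, Trbv29, Trbv13-2, Trbv13-3, Trbv2 and Trbv16), against 0.286% of all genes, and 10 had an unadjusted limma p under 0.05 on the higher side, against 2.62%. In sorted bulk RNA a larger number of cells that use a segment and more of its RNA per cell cannot be told apart. The summed log2 level of 10 alpha beta T cell markers was 55.5 to 56.2 on the WT and 59.5 to 59.8 on the dnTGFbRII arrays. Of these 10, 7 were higher and 1 lower on both dnTGFbRII arrays, against 18.6% and 12.6% of all genes. Of 9 gamma delta T cell markers 1 was higher and 1 lower. The part of T cells in the beta values was not tested.

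**Figure D1:**
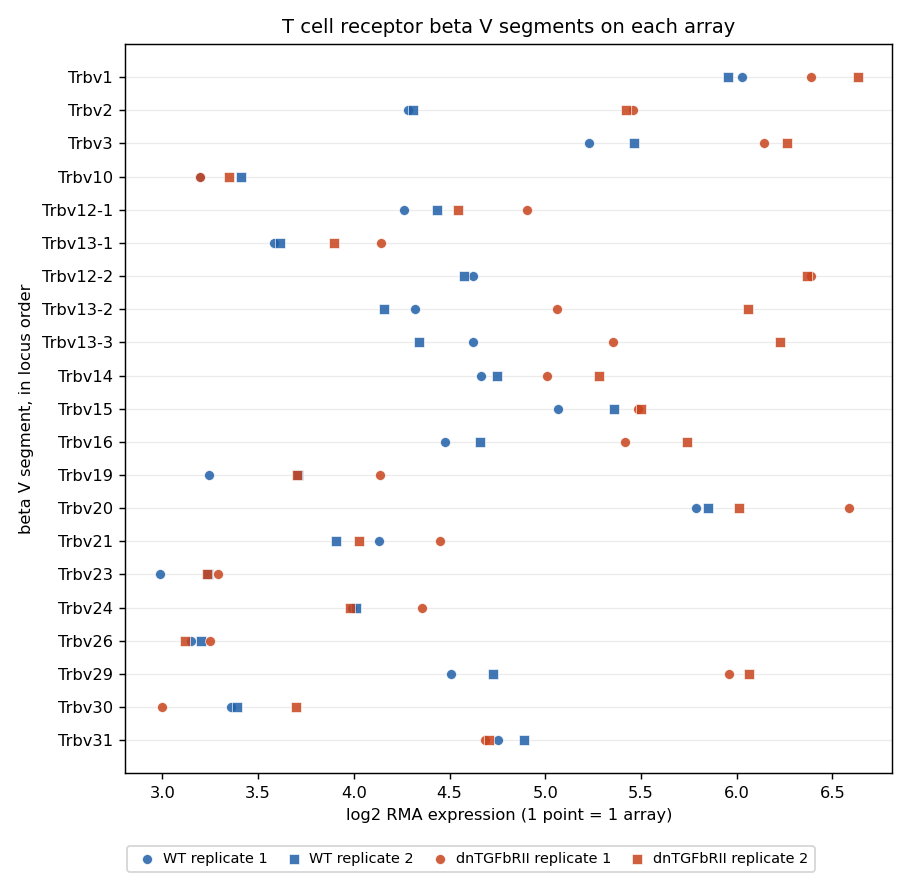
Each row is a beta V segment, in the order of the locus, and each point is 1 array (log2 expression on the horizontal axis; blue WT, orange dnTGFbRII; circles replicate 1, squares replicate 2). Trbv12-2, Trbv29 and Trbv2 show the widest gaps between the genotypes. Among segments near 3 to 4, Trbv10, Trbv23 and Trbv26 show none and Trbv13-1 shows a small gap.

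Trbv12-2, a V segment of the central part of the locus, measured 4.62 and 4.58 on the WT arrays and 6.39 and 6.37 on the dnTGFbRII arrays. Both dnTGFbRII values were higher by at least 1.74, and the arrays within a genotype lay within 0.05 of each other. The difference was 1.78 ± 0.08 (SE of the limma fit), or 3.43-fold, with the lowest unadjusted p of all genes in the table (2.06e-05; adjusted p = 0.618). Trbv2, near the start of the locus, measured 4.28 and 4.31 in WT against 5.46 and 5.42 in dnTGFbRII cells, a difference of 1.15 ± 0.08 and 2.21-fold. Its unadjusted p was the next lowest in the table (0.000116; limma adjusted p = 1). Trbv29, which the reference table lists as a pseudogene although it is named as the former Vbeta7 there, measured 4.51 and 4.73 in WT and 5.96 and 6.06 in dnTGFbRII cells. The groups were separated by 1.23, with a difference of 1.39 ± 0.12. These 3 segments had the largest limma test statistics of the 33 members.

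Trbv3 followed, with 5.23 and 5.46 in WT and 6.14 and 6.26 in dnTGFbRII cells (difference 0.85 ± 0.12). Trbv16 measured 4.48 and 4.66 in WT against 5.42 and 5.74 in dnTGFbRII cells (1.01 ± 0.15). Trbv1, which lies far upstream of the other V segments and is a segment of invariant natural killer T cells, measured 6.03 and 5.95 in WT and 6.39 and 6.63 in dnTGFbRII cells. Its groups did not overlap, and its difference of 0.52 ± 0.12 was smaller than those of Trbv3 and Trbv16. Trbv14 (0.44 ± 0.13) also had an unadjusted limma p under 0.05, while Trbv12-1 (0.38 ± 0.16), Trbv15 (0.28 ± 0.13) and Trbv20 (0.48 ± 0.22) were higher on both dnTGFbRII arrays without it.

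The Trbv12 and Trbv13 segments alternate along the locus as close copies, and their probes can share signal, so the single values are uncertain. The differences within this stretch ranged from 0.38 to 1.78. Trbv13-2 measured 4.32 and 4.16 in WT and 5.06 and 6.06 in dnTGFbRII cells, and Trbv13-3 measured 4.62 and 4.34 against 5.36 and 6.23. For both, dnTGFbRII replicate 2 was the higher array, by 1.00 for Trbv13-2 and 0.87 for Trbv13-3, so their differences of 1.32 ± 0.36 and 1.31 ± 0.33 carry wider errors than that of Trbv12-2. Trbv13-1 measured 3.58 and 3.62 in WT and 4.14 and 3.89 in dnTGFbRII cells, a difference of 0.42 ± 0.12. The segments known from invariant natural killer T cells thus ranged from 0.42 (Trbv13-1) to 1.39 (Trbv29). All were higher on both dnTGFbRII arrays, against 61.9% of the 21 beta V segments and 18.6% of all genes. The other beta V segments ran from -0.13 to 1.78, some higher, some overlapping and Trbv31 lower. Zbtb16, the transcription factor of invariant natural killer T cells, overlapped between the genotypes at 6.56 and 6.79 in WT and 6.63 and 7.16 in dnTGFbRII cells. The part of such cells in the beta values was not tested.

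The beta segments whose arrays overlapped between the genotypes were all among those with low values. Of the 21, 13 had a mean over the 4 arrays above the median row mean, a split that favours segments high in either genotype, and of the 8 below it 7 overlapped. The differences of those 8 ran from -0.031 to 0.44. Trbv10, listed as a pseudogene, measured 3.20 and 3.41 in WT and 3.20 and 3.35 in dnTGFbRII cells. Trbv30 measured 3.36 and 3.39 in WT and 2.997 and 3.70 in dnTGFbRII cells, so that the WT values lay between the dnTGFbRII values. Trbv19, Trbv21, Trbv23, Trbv24 and Trbv26 overlapped as well, with differences from 0.0073 to 0.44. Trbv31 was the 1 beta segment lower on both dnTGFbRII arrays, at 4.75 and 4.89 in WT and 4.69 and 4.71 in dnTGFbRII cells (-0.13 ± 0.09), a separation of 0.047. It is also the 1 V segment that lies beyond the C segments, in the opposite orientation. The table has no detection call; its 23 background control rows, grouped by GC content, ranged from 2.13 to 6.21, and 15 of the 21 beta segments exceeded the highest of them on 0 arrays.

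A pair of beta rows name more than 1 gene. The row of Trbv17, which also carries the name TCRB, measured 4.93 and 5.22 in WT and 6.34 and 5.79 in dnTGFbRII cells (0.99 ± 0.23). The row shared by Trbv4 and Trbv5 measured 4.21 and 4.42 against 4.91 and 4.79 (0.53 ± 0.11). Both were higher on both dnTGFbRII arrays.

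The gamma locus holds 4 C segments, each with its own J and 1 or more V segments. All 4 rows that read a C segment were higher on both dnTGFbRII arrays, 3 of them rows that also name V and J segments, while among the 5 V segments with their own row 2 were higher and 3 overlapped. Of the 7 members 3 were higher on both dnTGFbRII arrays (42.9%) and 0 lower, against 18.6% and 12.6% of all genes. The median difference was 0.45, and 3 members (Trgc3, Trgv4 and Trgv3) had an unadjusted limma p under 0.05 on the higher side, with differences below 2-fold. Without dnTGFbRII replicate 1 the median was 0.80 and 5 members were higher, against 36% of all genes. Without dnTGFbRII replicate 2 the median was 0.14 and 3 members were higher, against 40.6% of all genes.

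Trgc3, the C segment of the Trgv3 cluster, measured 12.94 and 12.83 in WT and 13.38 and 13.90 in dnTGFbRII cells, a difference of 0.76 ± 0.20 or 1.69-fold. Trgj3, its J segment, measured 9.57 and 9.28 in WT and 9.42 and 10.32 in dnTGFbRII cells. Replicate 2 alone stood above WT there, and the difference was 0.45 ± 0.34. Trgv3 itself measured 6.41 and 6.78 in WT and 7.42 and 6.99 in dnTGFbRII cells (0.61 ± 0.21). In this cluster the V segment was thus highest on dnTGFbRII replicate 1 and the J and C segments on replicate 2.

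The other clusters are read by rows that name several genes. The row of Trgv2, Trgj2 and Trgc2 measured 9.91 and 9.70 in WT and 10.95 and 11.39 in dnTGFbRII cells, a difference of 1.37 ± 0.19 or 2.58-fold (limma fit across all genes, unadjusted p = 0.00179, adjusted p = 1). The row of Trgv4, Trgj1 and Trgc1 measured 12.95 and 13.01 against 13.36 and 13.95 (0.68 ± 0.22). The row of Trgv1, Trgj4 and Trgc4 measured 10.70 and 11.20 against 11.33 and 11.57 (0.50 ± 0.21). In all 4 rows that read a gamma C segment, Trgc3 included, dnTGFbRII replicate 2 had the highest value. The Trgc3 row, at 12.94 and 12.83 in WT and 13.38 and 13.90 in dnTGFbRII cells, was close to the Trgc1 row on every array. Whether the gamma C rows share signal was not tested, so the 4 rows may not be separate readings.

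**Figure D2:**
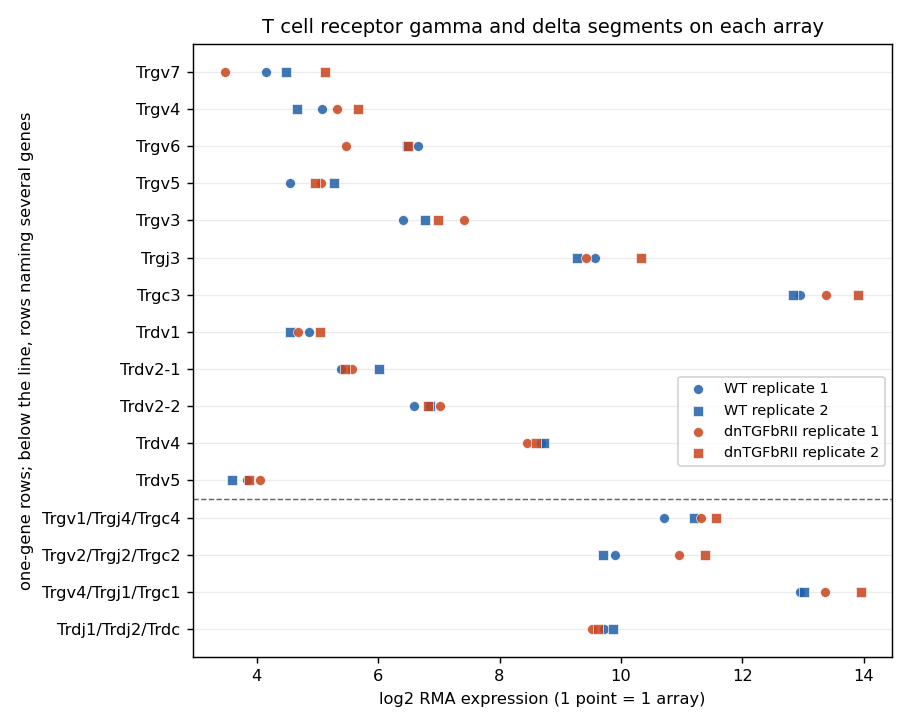
Each row is a gamma or delta segment, or below the dashed line a row naming several genes, and each point is 1 array (log2 expression on the horizontal axis; blue WT, orange dnTGFbRII). The 4 rows with a gamma C segment have both orange points to the right of both blue points, and the row with Trdc has them to the left.

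Single gamma V segments went different ways. Trgv4 alone measured 5.08 and 4.66 in WT and 5.33 and 5.67 in dnTGFbRII cells (0.62 ± 0.21). Trgv6 measured 6.66 and 6.48 in WT and 5.47 and 6.49 in dnTGFbRII cells, where only replicate 1 stood below WT (-0.59 ± 0.37). Trgv7 measured 4.15 and 4.49 in WT and 3.47 and 5.13 in dnTGFbRII cells, the dnTGFbRII arrays lying on either side of WT with the largest gap within a genotype of all 33 members (1.65). Its difference was -0.015 ± 0.60. Trgv5, the segment of epidermal gamma delta cells, measured 4.55 and 5.27 in WT and 5.06 and 4.97 in dnTGFbRII cells (0.10 ± 0.27). Trgv5, Trgv6 and Trgv7 overlapped between the genotypes.

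Of 5 delta V segments 1 was higher and 1 lower on both dnTGFbRII arrays (20% each), near the 18.6% and 12.6% of all genes. Nothing is read from these counts. The median difference was 0.16, and 0 had an unadjusted limma p under 0.05 in either direction. Trdv4, which lies next to the D, J and C segments of the locus, measured 8.69 and 8.73 in WT and 8.45 and 8.60 in dnTGFbRII cells (-0.18 ± 0.09). The row of Trdj1, Trdj2 and Trdc, the only row here that reads the delta C segment, measured 9.71 and 9.87 in WT and 9.53 and 9.62 in dnTGFbRII cells (-0.22 ± 0.10). Both were lower on both dnTGFbRII arrays, by a separation of 0.09 and 0.10, on the same arrays on which the gamma C rows were higher. The difference between the loci was not tested.

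Trdv5, placed beyond Trdc, measured 3.84 and 3.59 in WT and 4.05 and 3.88 in dnTGFbRII cells (0.25 ± 0.13), separated by 0.036. Trdv2-2 measured 6.59 and 6.85 against 7.02 and 6.82 (0.20 ± 0.14). Trdv1 measured 4.86 and 4.55 against 4.69 and 5.05 (0.16 ± 0.18). Trdv2-1 measured 5.38 and 6.01 against 5.58 and 5.46 (-0.18 ± 0.24). The last 3 overlapped between the genotypes. The delta median had the opposite sign without dnTGFbRII replicate 2 (-0.017). Of the V segments that serve both the alpha and the delta locus, 2 have a row of their own. Both were higher on both dnTGFbRII arrays, against 18.6% of all genes, but by unlike amounts. Trav14d-3-dv8 differed by 0.34 and Trav16d-dv11 by 3.12, the largest positive difference of all genes.

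**Figure D3:**
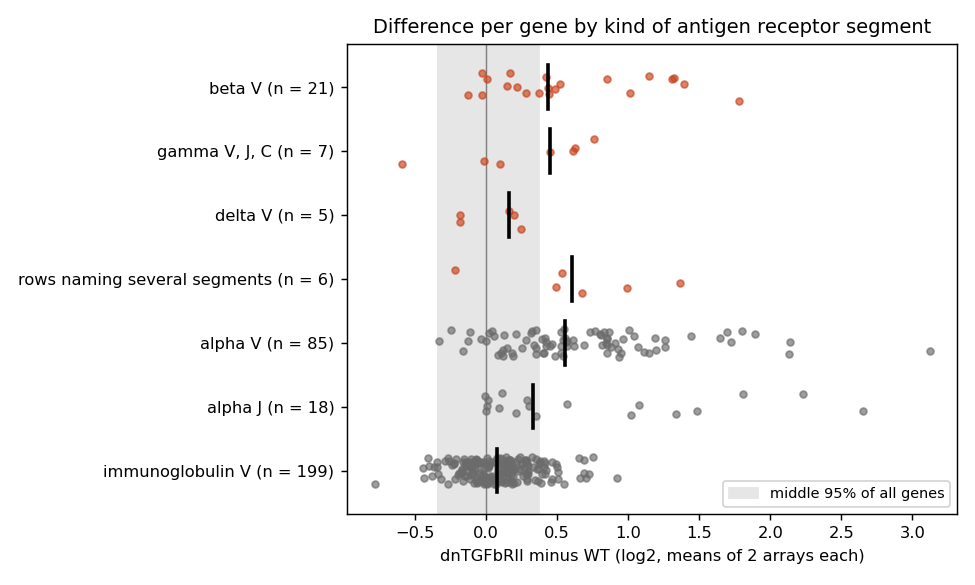
Each point is the difference between genotypes of 1 gene or row (dnTGFbRII minus WT, log2), the black bars are medians, and the grey band holds the middle 95% of all genes (-0.34 to 0.38). Beta V segments extend to 1.78 and alpha V segments to 3.12, while the 5 delta V segments stay within the band.

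Other antigen receptor segments were counted in the same way. Of 85 alpha V segments 62 were higher on both dnTGFbRII arrays (72.9%, median difference 0.55), and of 18 alpha J segments 10 were (55.6%, median 0.33). Over all genes the share was 18.6%. Some alpha V segments had identical differences, such as Trav7d-5 and Trav7n-5 (both 1.26), so alpha V counts may include the same signal more than once. Immunoglobulin V segments, which T and NK cells do not use and which are short genes of the same kind, were higher for 47 of 199 (23.6%, median 0.08), and 0 of them reached a 2-fold difference. The classes were not tested against each other. Of the dnTGFbRII arrays, replicate 1 was above replicate 2 for 68 of 85 alpha V segments, while for beta V segments it was above in 10 and below in 11.

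**Figure D4:**
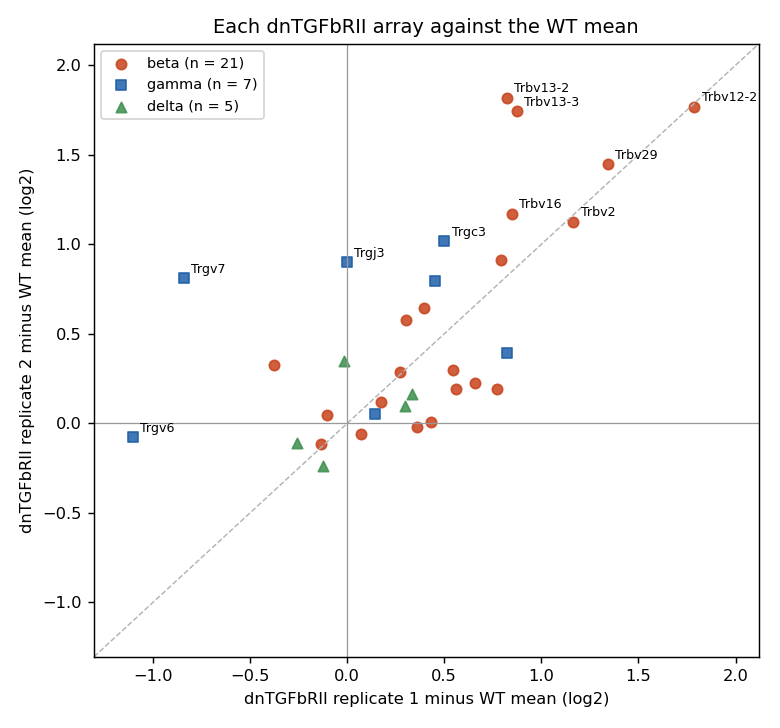
Each point is 1 member, placed by its value on dnTGFbRII replicate 1 (horizontal) and replicate 2 (vertical) minus the WT mean, in log2 units; the dashed line marks equal values. Trbv12-2, Trbv29 and Trbv2 lie close to the line, Trbv13-2 and Trbv13-3 above it, and Trgv7 far from it.

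Over all 33 members, 17 were higher on both dnTGFbRII arrays (51.5%, against 18.6% of all genes) and 2 lower (6.06%, against 12.6%). An unadjusted limma p under 0.05 was found for 13 on the higher side, against 2.62% of all genes, and for 0 on the lower side, against 1.55%. That count was 8 without WT replicate 1 and 8 without WT replicate 2. The median gap over the members was 0.21 between the WT arrays and 0.27 between the dnTGFbRII arrays. Over all genes these gaps were smaller, at 0.12 and 0.14. The gaps were widest in the gamma locus, at 0.34 in WT and 0.51 in dnTGFbRII cells.

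The chains that carry the receptor were measured beside it. Of the 4 CD3 chains, Cd3d (2.13 ± 0.22), Cd3e (2.78 ± 0.71) and Cd247 (0.36 ± 0.13), the zeta chain that NK receptors also use, were higher on both dnTGFbRII arrays, and Cd3g was lower (-0.45 ± 0.09). Cd3g measured 15.90 and 15.81 in WT and 15.47 and 15.34 in dnTGFbRII cells. Of 15 proximal signalling genes 6 were higher (40%, against 18.6% of all genes) and 0 lower (against 12.6%) on both dnTGFbRII arrays. An unadjusted limma p under 0.05 on the higher side was found for 3, against 2.62% of all genes. These were Fyn, a Src family kinase (0.52 ± 0.09), and the surface molecules Cd5 (0.48 ± 0.12) and Cd2 (0.38 ± 0.13). Cd5 lay below the highest background row on every array. Zap70, the kinase that binds the phosphorylated CD3 and zeta chains, overlapped between the genotypes (-0.023 ± 0.38).

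Genes of segment recombination stayed within narrow limits. Of 9 measured, 4 were higher (44.4%, against 18.6% of all genes) and 1 lower (11.1%, against 12.6%) on both dnTGFbRII arrays. Of them 0 had an unadjusted limma p under 0.05, and the differences ran from -0.20 to 0.15. Rag2, a subunit of the recombinase, measured 3.29 and 3.44 in WT and 3.49 and 3.55 in dnTGFbRII cells. Ptcra, the surrogate alpha chain of thymic precursors, was higher on both dnTGFbRII arrays by a small margin (0.062 ± 0.08). Prkdc, a DNA repair kinase, had the largest test statistic (-0.20 ± 0.08), followed by Xrcc5 (0.15 ± 0.09). Rag2 and Ptcra lay below the highest background row on every array, so their small differences say little. Rag1 was not analysed here.

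Markers of alpha beta and gamma delta T cells were counted apart. Of 10 alpha beta T cell markers, 7 were higher (70%, against 18.6% of all genes) and 1 lower (10%, against 12.6%) on both dnTGFbRII arrays. An unadjusted limma p under 0.05 on the higher side was found for 5, against 2.62% of all genes. Cd8a, a coreceptor chain, measured 6.59 and 6.28 in WT and 7.56 and 7.51 in dnTGFbRII cells (1.10 ± 0.13), Cd40lg differed by 0.65 ± 0.10 and Lef1 by 0.51 ± 0.09. Cd4, the other coreceptor, overlapped (0.06 ± 0.10). Of this list, Cd40lg, Cd4, Cd5, Cd6 and Cd8b1 lay below the highest background row on every array. Of 9 gamma delta T cell markers 1 was higher and 1 lower on both dnTGFbRII arrays (11.1% each, against 18.6% and 12.6% of all genes). Of these markers 0 had an unadjusted limma p under 0.05. Their summed log2 level was 44.8 to 45.1 on the WT arrays and 45.6 on both dnTGFbRII arrays. Sox13, a transcription factor of gamma delta cells, lay between 4.43 and 4.49 and Blk between 4.08 and 4.19 on all arrays, below the highest background row of each array. Cd163l1 (0.23 ± 0.09) and Maf (0.22 ± 0.14) had the largest test statistics of this list. Cd163l1 also lay below the highest background row on every array.

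NK cell markers had 11 negative and 4 positive differences (26.7% positive, against 55.1% of all genes). Of 15, 2 were higher on both dnTGFbRII arrays (13.3%, against 18.6% of all genes), Eomes (2.79 ± 0.51) and Itga2 (0.50 ± 0.14). Another 3 (Tnfsf10, Gzmb and Klrd1) were lower on both (20%, against 12.6%), and the median difference was -0.07. Markers of cells without a T cell receptor were counted as well, in short lists, beside the same shares of 18.6% higher and 12.6% lower over all genes. Of 5 B cell markers 2 were higher and 0 lower on both dnTGFbRII arrays, led by Cd22 (0.45 ± 0.11). Of 8 dendritic cell markers 0 were higher and 5 lower, with H2-Ab1 at -3.05 ± 0.84. Of 9 macrophage and neutrophil markers 2 were higher and 1 lower. Ngp differed by 0.83 ± 0.21 but lay below the highest background row on every array. Of 5 hepatocyte markers 0 were higher and 2 lower, with Alb at -1.16 ± 0.65. Their summed log2 levels were 22.6 to 22.7 in WT and 23.3 to 23.5 in dnTGFbRII cells for B cells, 65.7 to 77.8 and 57.8 to 58.8 for dendritic cells, 45.8 to 51.6 and 51.2 to 51.8 for macrophages and neutrophils, and 21.0 to 22.9 and 20.4 to 20.8 for hepatocytes.

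**Figure D5:**
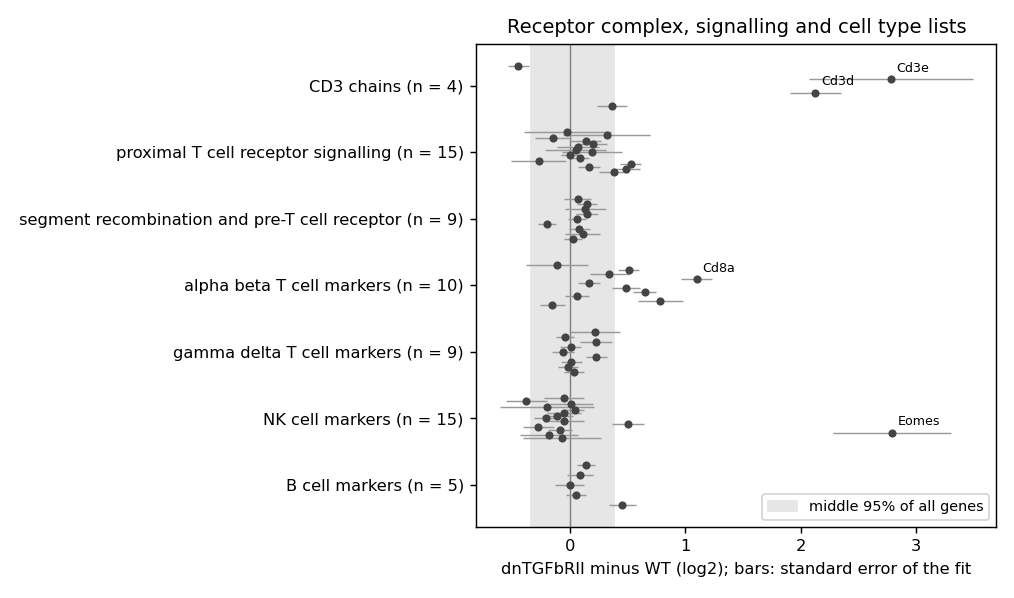
Each point is the difference of 1 gene (dnTGFbRII minus WT, log2) with the fit's standard error as a bar, by gene list, and the grey band holds the middle 95% of all genes. Cd3e, Cd3d, Eomes and Cd8a lie above 1, and all 9 gamma delta T cell markers lie inside the band.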

How the data were processed

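The authors deposited log2 expression values; the submitters' processing notes name RMA and the software Affymetrix Expression Console. The values were used as they are. Software versions, RMA variant and genome build: not given in the sources used here. Coordinates are therefore left out. Of 72688 rows, 30604 name exactly 1 gene. Symbols were updated to the GRCm38.p6 reference gene table by Entrez identifier, symbol or unambiguous synonym (Tcrg-V4 is Trgv4), which matched 30602 rows, all 33 members among them; that table also gave the order of segments. The row with the highest mean was kept per gene. The 33 members have 1 such row each.

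The test was limma's moderated statistic (version 3.58.1, under R 4.3.3; 2-sided, 2 residual and 2.04 prior degrees of freedom) over all 30063 genes without a level filter, adjusted by the Benjamini-Hochberg method. Rows naming several segments were added in a second fit. The fit was also run on simulated arrays with independent noise. Same-numbered arrays here deviated together, so that run does not test the p-values given here. The members and the 10 gene lists (97 genes, 87 with a row) were chosen with earlier results of these data known. All C segments, up to 5 V or J segments per class and direction with the largest test statistics, the CD3 chains, Rag2, Ptcra and up to 3 genes of each list were named by rule; Zap70, Cd4, Zbtb16, Sox13, Blk and Ncr1 were chosen after their values were seen. No promoter, protein or other sequence was used.

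Alternatives were 2 level filters, repeated quantile normalization, median centring, averaged rows, a trended and robust prior, the replicate number as a block, added rows, and each array left out in turn.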

Additional observations from a re-analysis of the deposited data

How the results depend on the processing

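The adjusted threshold was passed by 0 genes in every alternative run with limma. The differences of 24 of the 33 members kept their sign in every alternative, and 14 of 326 values had the opposite sign, all in members near 0 or with wide gaps between arrays. These were Trbv26 after repeated quantile normalization (-0.030), with arrays centred on their medians (-0.018) and in single left-out arrays (-0.058 to 0.073), and, with 1 array left out, Trbv10 (-0.14 to 0.077), Trgv5 (-0.26 to 0.46), Trdv2-1 (-0.50 to 0.13), Trgv7 (-0.84 to 0.81), Trbv24 (-0.019 to 0.36), Trbv30 (-0.38 to 0.33), Trdv1 (-0.017 to 0.35) and Trgj3 (-0.00042 to 0.90).

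With genes above the median of row means, 315 genes higher and 209 lower had an unadjusted limma p under 0.05, the beta median was 0.85 and the delta median -0.0083. Above the 75th percentile these counts were 109 and 75, 1 member had such a p and no beta member remained; fewer genes were tested in both. With the rows naming several segments added, 6 gamma rows were higher on both dnTGFbRII arrays and the delta median was -0.0083. Leaving out 1 array gave 413 to 1143 genes higher and 213 to 642 lower at that p, 8 to 14 members, beta medians of 0.30 to 0.54 with 14 to 18 members higher on all dnTGFbRII arrays left, gamma medians of 0.14 to 0.80 with 3 to 5, and delta medians of -0.017 to 0.12. With 3 arrays the groups separate more easily, and the share of all genes higher was then 33.9% to 40.6%, against 18.6% with 4, so these counts do not show stability.

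Same-numbered arrays deviated together over genes (r = 0.434), but with 2 numbers this does not show that they pair samples. With a replicate block in the model, 1369 genes higher and 1074 lower had an unadjusted p under 0.05, the lowest adjusted p was 0.244 and 0 passed. Among members, limma's unadjusted p went below 0.05 for Trdv5 (0.0396) and above it for Trgv3 (0.0508). Single arrays as the only sample of a genotype were assumed to vary like the other genotype. Segments near the background rows give no lower bound on a difference, and the cause of the changes above was otherwise not tested.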
